A study of Rattus norvegicus and Homo sapiens with 12 samples.

Results

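The rat side of the selection experiment was examined through F0 PAIII, the parental population, and F2 PAIII, the population recovered after repeated exposure to MSC CM. Its members were the 6 PAIII libraries, 3 of F0 and 3 of F2, among the 12 libraries of the series, and they were chosen by their labels. PAIII is a prostate adenocarcinoma cell line from rat. Both populations were grown in DMEM with 10% FBS. For F2, CM was taken from primary bone MSCs of C57/BL6 Rag2-/- mice and applied for 72 h at a time, with 48 h of recovery in complete medium in between. The number of rounds is 2 by the sample labels and 3 by the series description. That description speaks of exposure in triplicate and of biological replicates, without saying whether each F2 sample came from a selection of its own. The SD and p-values below therefore describe the spread between samples, which may be technical.

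MSCs are stromal precursors of bone, the tissue to which prostate cancer often spreads, and they secrete many cytokines. The study concerns one of these, IL-28, an interferon lambda that binds a receptor made of IL-28Rα and IL-10Rβ and signals through JAK kinases and STAT proteins. In QuantSeq, priming at the poly(A) tail gives reads from the 3′ part of an mRNA, so a level is a count of tags per gene and does not report on the rest of the transcript.

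The deposited table names rat genes by Ensembl identifier alone. None of the reference tables used here pairs these identifiers with gene names, so the receptor, the STAT proteins, apoptosis genes and the markers of prostate epithelium or MSCs were not analysed here in PAIII. For this reason the identity of the cells was not checked against markers. Identifiers are printed for 4 genes, 2 in each direction, and the other genes are described by their numbers, levels and changes. No sequence is printed, since none could be matched to an identifier.

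Gene counts lay between 12052227 and 12093721 in the F0 libraries and between 11445179 and 11791154 in the F2 libraries. Between 12150 and 12372 of the 32402 listed genes had at least 1 count in a library. The 100 highest genes took 23.5% to 24.3% of gene counts in F0 and 24.0% to 24.8% in F2. The levels below are CPM after TMM scaling, which puts the libraries on a common total.

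The libraries of the populations stood apart on the first principal component of log2 CPM, which held 56.4% of the variance over the 9654 tested genes. F2 replicate 2 lay on the F2 side of this component, at 9.92, while F2 replicates 1 and 3 lay at 18.9 and 23.1 and the F0 libraries between -19.1 and -16.0. With the F0 mean set to 0 and the mean of F2 replicates 1 and 3 set to 1, it was at 0.711. On the second component, which held 13.3% of the variance, F2 replicate 2 lay at -18.5 and F2 replicates 1 and 3 at 6.13 and 6.92. Because this library stood apart, the results are given with it and without it.

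**Figure D1:**
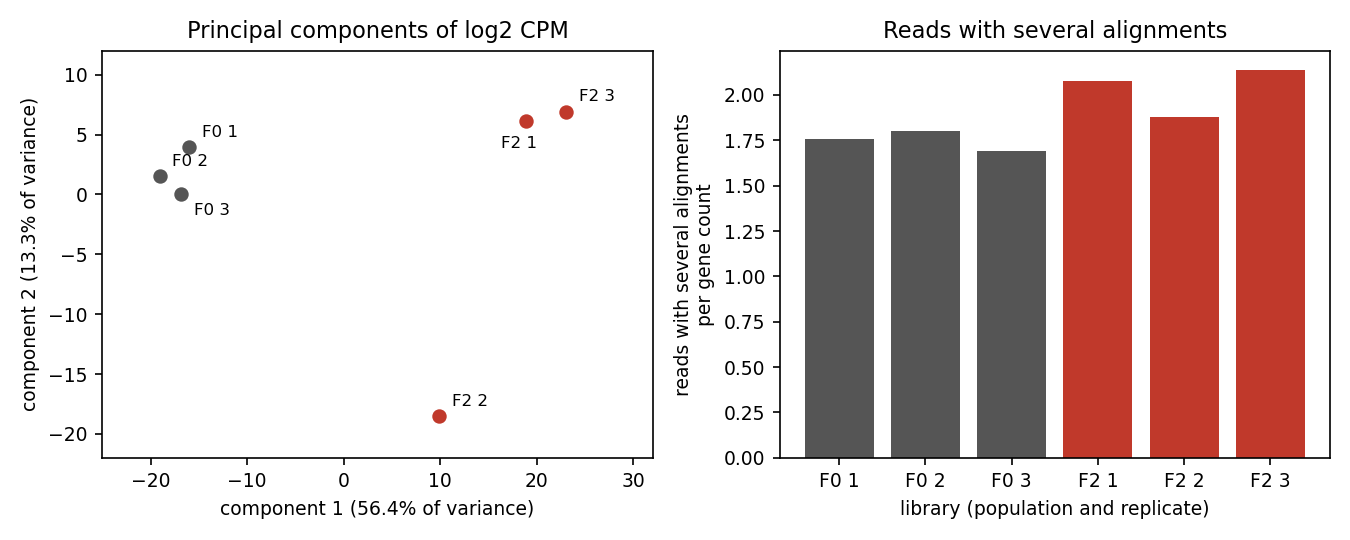
Left, the 6 PAIII libraries on the first (horizontal) and second (vertical) principal components of log2 CPM, with F0 in grey and F2 in red. Right, bars give the reads with several alignments per gene count in each library, where a read may have been counted at each of its alignments. F2 replicate 2 lies apart from F2 replicates 1 and 3 on both components, and its bar (1.88) lies between those of F0 (1.69 to 1.80) and those of the other F2 libraries (2.08 and 2.14).

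F2 PAIII was compared with F0 PAIII to ask which mRNAs differ between the selected and the parental cells. Many genes differed, and most differed by little. In edgeR's quasi-likelihood test, 3047 of the 9654 tested genes had a Benjamini-Hochberg adjusted p under 0.05 (31.6%), of which 1535 rose (15.9% of the tested genes) and 1512 fell (15.7%). The change was below 0.25 on the log2 scale in 870 of these genes, from 0.25 to 0.5 in 1284, from 0.5 to 1 in 720 and at least 2-fold in 173. The genes that rose had a median log2 fold change of 0.36 and those that fell -0.33, against 0.0020 over all tested genes. The 3 F0 libraries did not overlap the 3 F2 libraries in 4293 genes (44.5% of the tested genes), and these included 2893 of the genes past the threshold and 165 of the 173 changed at least 2-fold. Fewer libraries leave less room for overlap, and without 1 of the other libraries 4849 to 5187 genes did not overlap (49.6% to 53% of those tested). Without F2 replicate 2 this was so for 5575 of 9788 tested genes (57.0%), and 3572 were past the threshold (36.5%) and 263 changed at least 2-fold (2.69%), 131 upward (1.34%) and 132 downward (1.35%).

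**Figure D2:**
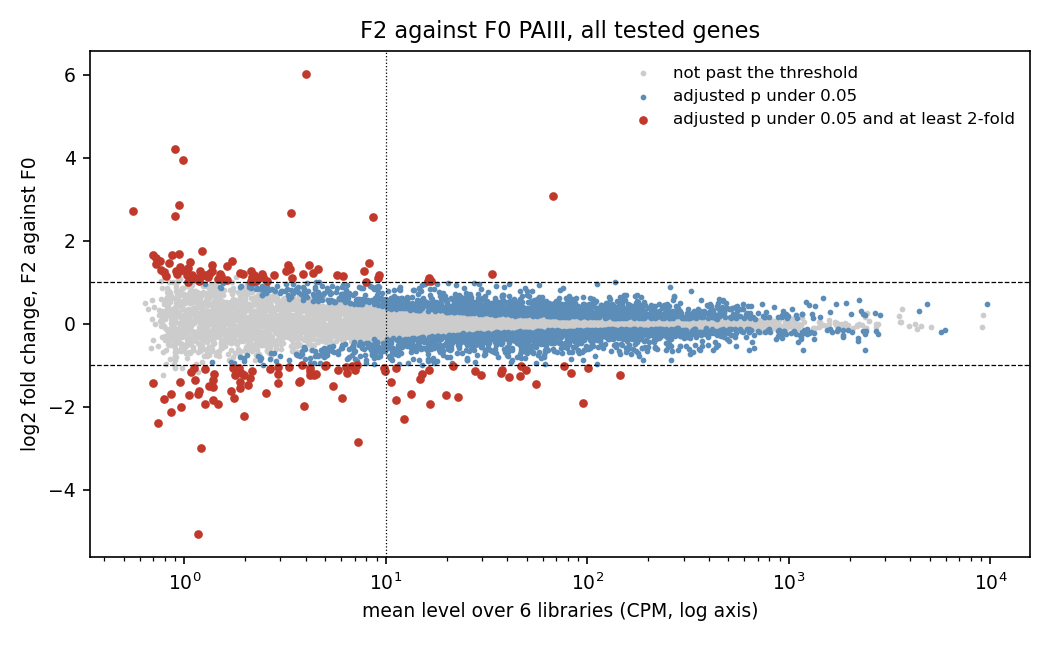
Each point is 1 of the 9654 tested genes, with its mean level over the 6 libraries in CPM on a log axis and its log2 fold change of F2 against F0. Blue marks the genes with an adjusted p under 0.05, and red the 173 of these that changed at least 2-fold; dashed lines mark a 2-fold change and the dotted line 10 CPM. Most red points lie below 10 CPM, and to the right of it 5 lie above the upper line and 26 below the lower line.

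Large changes were mostly those of low mRNAs. Of the 173 genes changed at least 2-fold (1.79% of the tested genes), 83 rose (0.860%) and 90 fell (0.932%), and 142 had a mean level under 10 CPM. Among the 219 tested genes with a mean under 1 CPM, 21 rose and 7 fell at least 2-fold (12.8%). Of the 2382 tested between 1 and 10 CPM, 57 rose and 57 fell (4.79%). At such levels a gene could pass the filter through the population where it was high, so the counts in these bins are descriptions. From 10 to 100 CPM, 5 genes rose and 24 fell at least 2-fold, of 4870 tested (0.596%). At 100 CPM or more, none of 2183 rose and 2 fell at least 2-fold (0.0916%). These 31 genes of 10 CPM or more were 0.321% of the tested genes. In all of them the F0 and F2 libraries were separate, as they were in 44.5% of all tested genes. Since the 31 were chosen from these same libraries, their separation is a description. With DESeq2 in place of edgeR 106 genes changed at least 2-fold over all levels (1.1% of those tested, 39 higher, 67 lower). With at least 10 counts required in every library, 91 of 9141 tested genes did (0.996%, 33 higher, 58 lower). Of those with 10 CPM or more, 5 were higher and 26 lower under both, while without F2 replicate 2 there were 11 and 45.

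When all sizes of change were counted, rises and falls were close in number at 1 CPM and above. Among the genes past the threshold, rises made up 75% (21 of 28) under 1 CPM, 53.3% from 1 to 10 CPM, 51.4% from 10 to 100 CPM and 47.1% at 100 CPM or more. Below 10 CPM a gene could pass the filter through the population where it was high, so the shares there are descriptions. The share of tested genes past the threshold went from 16.4% from 1 to 10 CPM to 48.3% at 100 CPM or more, as the median standard error of the log2 fold change went from 0.24 to 0.051. Among the genes past the threshold, the median absolute log2 fold change was 0.79 in the lower and 0.24 in the higher of these classes. Where counts were low, a change therefore had to be large to pass, and small changes there were not detectable at this depth.

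**Figure D3:**
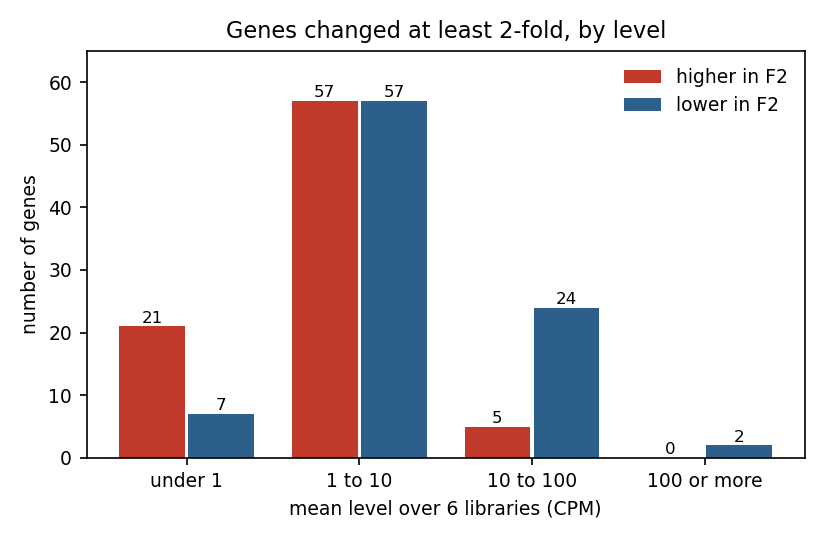
Bars count the genes with an adjusted p under 0.05 and a change of at least 2-fold, by their mean level over the 6 libraries in CPM, with rises in F2 in red and falls in blue. Rises outnumber falls under 1 CPM (21 against 7), the counts are equal from 1 to 10 CPM (57 each), and falls outnumber rises from 10 to 100 CPM (24 against 5). Below 10 CPM a gene could pass the filter through the population where it was high, so the counts there are descriptions.

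A few genes went from the floor of detection to a measurable level or the reverse. In 3 genes every F0 library had at most 3 counts and every F2 library had more, and all 3 were past the threshold. Against a floor of 3 counts per library they were at least 6.93-fold to at least 31.7-fold higher in F2, and the highest of them reached a mean of 7.88 CPM there. In the other direction, 2 genes had at most 3 counts in every F2 library and were past the threshold, at least 4.81-fold and at least 8.88-fold lower in F2. Genes at the floor in either population could pass the filter only through the population where they were high. This selection favours a large difference, so that all of them were past the threshold is a description.

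Single genes are named where the adjusted p was under 0.05, the mean was at least 10 CPM and the populations did not overlap. By this rule 1230 of the 9654 tested genes rose and 1276 fell. The largest of these rises stood far from the next, with log2 fold changes of 3.08, 1.19 and 1.11 for the first 3 genes and 0.96 for the tenth. The falls were more even, at -2.30, -1.93 and -1.90 for the first 3 and -1.33 for the tenth. All 20 of these genes were among the 1662 (17.2% of the tested genes) past the threshold in each of the 6 fits that left out 1 library. Since the 20 were chosen from these same libraries as the largest changes, this is a description.

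Among the genes that met this rule, the largest rise was that of ENSRNOG00000046548. It had 164, 157 and 197 counts in F0 replicates 1, 2 and 3, or 13.7, 12.98 and 16.3 CPM. In F2 it had 1434, 1449 and 1323 counts, or 122, 126 and 115 CPM. The F2 libraries were close to each other, F2 replicate 2 was the highest of them, and all lay far above F0. The mRNA was 8.43-fold higher in F2 (log2 fold change 3.08, standard error 0.082, adjusted p = 5.34e-13 from edgeR), and the log2 fold change lay between 3.01 and 3.18 in the 6 fits that left out 1 library.

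The second largest rise by the same rule was that of ENSRNOG00000019956, at 20.0, 20.4 and 21.3 CPM in F0 and 45.9, 44.98 and 50.2 CPM in F2. The F0 libraries lay close together, and the lowest F2 library was above the highest of them. F0 had a mean of 20.6 ± 0.685 CPM and F2 of 47.0 ± 2.81 CPM (SD, n = 3 each). The log2 fold change by edgeR was 1.19 with a standard error of 0.081 (adjusted p = 5.63e-08). Here too F2 replicate 2 lay with the other F2 libraries, at 0.924 of the way from the F0 mean to the mean of F2 replicates 1 and 3 in log2 CPM.

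The largest fall by the same rule was that of ENSRNOG00000010058. Its 203, 277 and 260 counts in F0, or 17.0, 22.9 and 21.5 CPM, stood against 40, 62 and 42 counts in F2, or 3.40, 5.39 and 3.64 CPM. Every F2 library lay far below every F0 library. F0 levels were 4.93-fold those of F2 (log2 fold change -2.30, standard error 0.17, adjusted p = 1.32e-07 from edgeR). F2 replicate 2 was the highest of the F2 libraries, and without it the log2 fold change was -2.54.

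The next fall, of ENSRNOG00000012509, differed widely between the F2 libraries. F0 had 270, 364 and 317 counts, or 22.6, 30.1 and 26.2 CPM. F2 replicates 1 and 3 had 35 and 56 counts, or 2.97 and 4.85 CPM, while F2 replicate 2 had 149 counts, or 12.96 CPM. It lay between the populations, at 0.367 of the way from F0 to the other F2 libraries in log2 CPM. The log2 fold change was -1.93 with all libraries (standard error 0.29, adjusted p = 0.000132 from edgeR) and -2.75 without F2 replicate 2 (adjusted p = 8.05e-14 from edgeR).

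**Figure D4:**
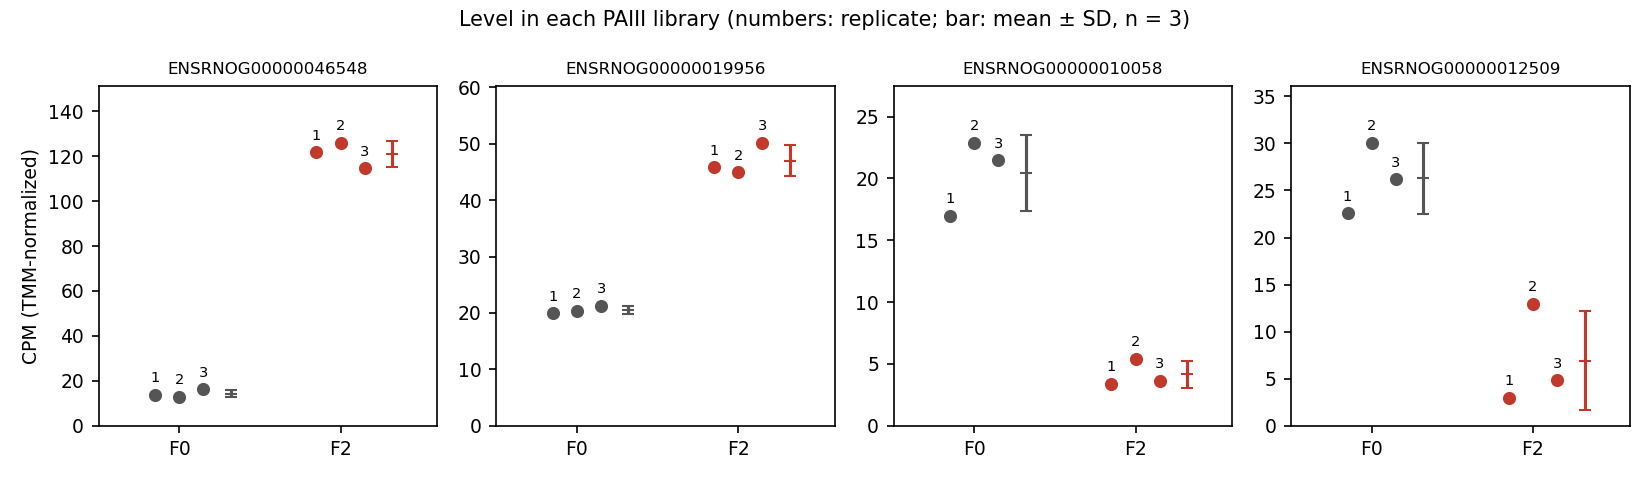
Level in CPM (vertical axis, from 0) of the 4 named genes, 2 that rose and 2 that fell, in each F0 (grey) and F2 (red) library, with replicate numbers above the points and the mean ± SD (n = 3) beside them. F2 replicate 2 lies with the other F2 libraries in both genes that rose, and at 12.96 CPM it lies between the populations in ENSRNOG00000012509.

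F2 replicate 2 was then set against the other libraries over many genes, to ask how it sits between F0 and F2. For each library, genes were taken that changed at least 2-fold in the fit without that library, and its level was placed on a scale from 0, the F0 mean, to 1, the F2 mean of the libraries left in. The library placed took no part in calling its genes. F2 replicate 2 had a median position of 0.597 over 263 genes, with quartiles at 0.354 and 0.858. F2 replicates 1 and 3 had medians of 0.936 and 0.989, over 159 and 146 genes, and the F0 libraries 0.186, 0.0307 and 0.0807. The scales differ, since F2 replicate 2 is part of the F2 mean against which replicates 1 and 3 were placed. On 96 genes that changed at least 2-fold in each of the 3 fits without 1 F2 library, which F2 replicate 2 helped to choose, the medians were 1.07, 0.908 and 1.13 for F2 replicates 1, 2 and 3. These positions have no test, since they compare single libraries.

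The position of F2 replicate 2 varied from gene to gene about as widely as that of F2 replicate 1, whose quartiles were 0.686 and 1.13, or of F2 replicate 3, at 0.755 and 1.18. Of the 263 genes, F2 replicate 2 was nearer to F0 than to the other F2 libraries in 112 (42.6%), and in 41 it lay beyond F0 or beyond the other F2 libraries. The median was 0.544 for the 170 genes with a log2 change from 1 to 1.5 and 0.759 for the 39 genes with a log2 change of 2 or more. The libraries that set these sizes and the 2-fold cutoff also set the scale of the position. Choosing genes by that cutoff can draw positions below 1, most of all for changes near it. The same classes are not given for F2 replicates 1 and 3, so whether this order is particular to F2 replicate 2 cannot be told. Rising genes had a median of 0.637 and falling genes 0.525 in log2 CPM, and this order turned in linear CPM, at 0.536 and 0.654. Of the 58 genes with a mean of 10 CPM or more over the 5 other libraries, 47 were falling genes with a median of 0.449 and 11 were rising genes with a median of 0.762, which were 0.578 and 0.682 in linear CPM. The 10 largest rises and the 10 largest falls by the naming rule were chosen with F2 replicate 2 among the libraries, which draws its position toward the other F2 libraries. In these falls F2 replicate 2 was the F2 library nearest to F0 in 8 and ranged in position from 0.277 to 1.08, and in the rises it was nearest in 4 and ranged from 0.632 to 1.15. Neither difference between rising and falling genes was tested.

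**Figure D5:**
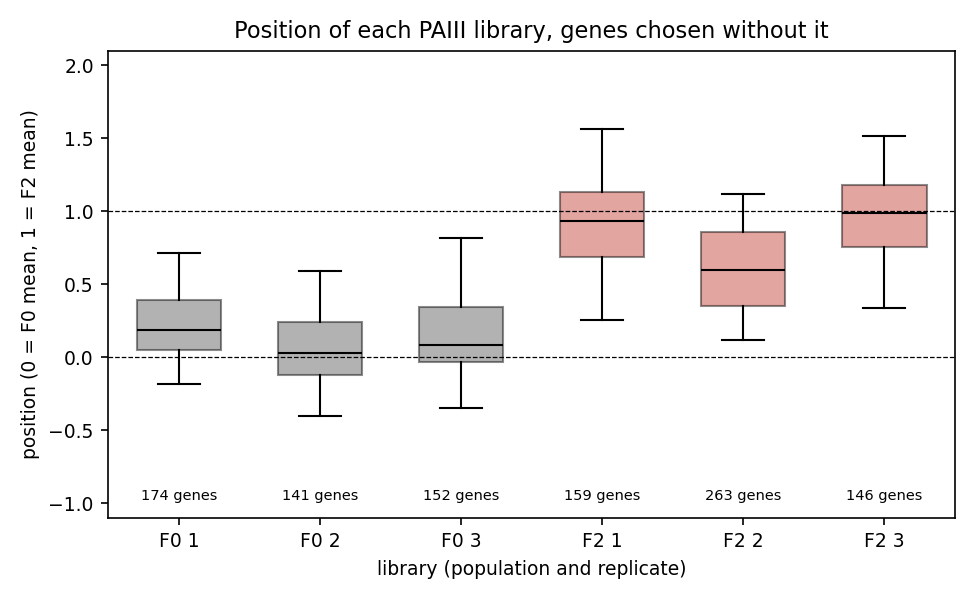
Position of each PAIII library on the scale from 0 (F0 mean) to 1 (F2 mean), over the genes changed at least 2-fold in the fit without that library. Boxes span the quartiles with the median as a line, whiskers reach the 5th and 95th percentiles, and the number of genes stands under each box. F2 replicate 2 has its median at 0.597, below those of F2 replicates 1 and 3 (0.936 and 0.989) and above those of F0 (0.0307 to 0.186).

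Measures that treat the F2 libraries alike also placed F2 replicate 2 nearest to F0. Of the 173 genes changed at least 2-fold with all libraries, F2 replicate 2 was the F2 library nearest to the F0 mean in 94 (54.3%), replicate 1 in 40 and replicate 3 in 39. Of the 3047 genes past the threshold these numbers were 1660 (54.5%), 893 and 494. F2 replicate 2 lay within the range of the F0 libraries in 119 of these 3047 genes, replicate 1 in 25 and replicate 3 in 8. Over the 7053 genes of 10 CPM or more, the root mean square log2 difference from the F0 libraries averaged 0.258 for F2 replicate 2, against 0.311 and 0.337 for replicates 1 and 3 and 0.134 between the F0 libraries. F2 replicate 2 differed from F2 replicates 1 and 3 by 0.191 and 0.199, and these differed from each other by 0.152. It thus stood nearer to its own population than to F0. It stood at least 1.5-fold from all other libraries in 9 of the 7053 genes, and each other library did so in 0 to 3.

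With F2 replicate 2 left out, the same genes largely remained and more were added. Of the 173 genes changed at least 2-fold with all libraries, 153 were also among the 263 without it, which is 88.4% of the former and 58.2% of the latter. In 122 of these 153 the change was larger without it, and over the 153 the median gain in absolute log2 fold change was 0.10. The coefficient of biological variation was 4.07% in F0, 6.91% in F2 and 5.08% in F2 replicates 1 and 3 alone.

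Reads that the counting did not assign to 1 gene also differed between the libraries. Reads with several alignments were 1.76, 1.80 and 1.69 per gene count in F0 and 2.08, 1.88 and 2.14 in F2, so F2 replicate 2 was the F2 library nearest to F0 in this measure. The totals do not show whether such a read was counted at each of its alignments, so this ratio need not be one of distinct reads. Reads outside genes were 24.3%, 23.8% and 24.6% of uniquely placed reads in F0 and 24.8%, 26.7% and 26.9% in F2, where replicate 2 lay with replicate 3 and replicate 1 was nearest to F0. Ambiguous reads were 0.184%, 0.186% and 0.183% in F0 and 0.172%, 0.168% and 0.170% in F2, where replicate 2 was the farthest from F0. The populations did not overlap in any of these 3 measures, and each gave p = 0.1 in a two-sided exact permutation test, the smallest that 3 against 3 allow. They did overlap in the number of genes with at least 1 count and in the share of the 100 highest genes. The same permutation test gave p = 0.2 and p = 0.6 for these. Gene counts of F2 replicate 2 (11596500) lay between those of the other F2 libraries. The part of these totals in the position of F2 replicate 2 was not tested.

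In DU145, the human line of the series, 2599 of 14316 tested genes were past the threshold between F2 and F0 (18.2%) and 239 changed at least 2-fold (1.67%). The F2 libraries of DU145 had median positions of 0.923, 0.834 and 0.869 for replicates 1, 2 and 3 on the same scale, and root mean square log2 differences from F0 of 0.249, 0.253 and 0.255. The lowest of these positions, 0.834, was above the 0.597 of F2 replicate 2 in PAIII. The lines differ in species, table and depth, and the difference between them was not tested.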

How the data were processed

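RNA of 3 F0 and 3 F2 PAIII samples was profiled with QuantSeq. Alignment and counting were done by the authors on the Bluebee platform, and the deposited values are raw counts per gene with no normalization. The submitters' processing notes list STAR 2.5.2a and HTSeq 0.6.0 and, for every sample, GRCh38, which is a human build. The rat build, the annotation, the use of strand and any removal of PCR duplicates are not given in the sources used here. Columns were assigned to samples by the population and replicate number in their names. HTSeq's totals of reads outside genes, of ambiguous reads and of reads with several alignments were kept out of all tests and library sizes, and their shares are in the text above.

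From the deposited counts, genes were filtered with filterByExpr (minimum count 10, total 15), scaled by TMM and compared between F2 and F0 by the quasi-likelihood test of edgeR 4.0.16 in R 4.3.3, with Benjamini-Hochberg adjustment over all tested genes. DESeq2 1.42.0 was an alternative. Positions used log2 CPM with a prior count of 2. The naming rule took genes with an adjusted p under 0.05, at least 10 CPM on average and no overlap of the populations, ranked by log2 fold change, and 2 identifiers are printed in each direction. Counts over gene lists, and a test of the difference from DU145 gene by gene, needed gene names and were not run. The method was tested on simulated data. In pairs of libraries within a population, counts varied by at least 2.77 times sampling noise, so none was counted as a copy of another. The members, the rule and the lists were chosen with earlier results of these data known.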

Additional observations from a re-analysis of the deposited data

Results flagged for a closer look

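Reads with several alignments, which lie outside the gene counts, averaged 2.03 per gene count in F2 PAIII, and each F2 library lay above each F0 library. Reads outside genes averaged 26.1% of uniquely placed reads in F2 PAIII, and again each F2 library lay above each F0 library. Both were picked out because these reads were not part of the gene comparison. The genes they come from were not analysed here.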

How the results depend on the processing

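The count of genes past the threshold stayed within 1.5 times of 3047 under all alternatives and lay between 2097 and 3572 when 1 library was left out. The count at 2-fold was less steady. It was 173 as reported, 91 (33 higher, 58 lower) with at least 10 counts in every library and 106 (39 higher) with DESeq2, and it lay between 141 and 263 (57 to 131 higher) when 1 library was left out, the highest without F2 replicate 2. Among genes of 10 CPM or more, rises at 2-fold were 4 to 11 and falls 23 to 45 in those fits; rises were 8 without F0 replicate 1 or 3 and 9 without F2 replicate 1. All alternatives gave more falls than rises there. The 4 named genes, which were chosen from these same libraries, kept their direction and call under every alternative run. The position of F2 replicate 2 lay between 0.525 and 0.673 with all genes past the threshold, with library size alone and with genes of 10 CPM or more, and on the genes called in all 3 fits, an alternative chosen after seeing the data like linear CPM and the counts of non-overlapping genes without 1 library, it was 0.908. Replicate numbers were not used to pair the samples in the main test. The deviations of same-numbered libraries correlated at 0.0299, 0.0381 and -0.00617, and only number 2 correlated best with its own. With so few libraries, these correlations cannot decide whether same-numbered samples were handled together. With the replicate block 3058 genes were past the threshold, 174 of them at 2-fold. Gene lists and the test against DU145 were not run, since the identifiers could not be paired with names. The rounds of CM, the origin of the F2 samples and the annotation limit what the counts can show.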
